A study of Mus musculus with 9 samples.

Results

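Endothelial cells of arteries and veins differ in the genes they express, and 9 of the genes used to tell them apart were read here in cells sorted from mouse retinas. They are the connexin genes Gja1, Gja4 and Gja5, the ligand genes Sema3g and Efnb2, the kinase gene Bmx and the matrix gene Fbln5, and, on the venous side, the transcription factor gene Nr2f2 and the chemokine-binding receptor gene Ackr1. The members were all probe sets, the groups of oligonucleotides that read a transcript, to which the array annotation gives 1 gene symbol from this list. This gave 13 probe sets among 36701 on the arrays, of which 29131 had 1 gene symbol. Array design A held 9 of the 13, design B held 3 and design C held 1.

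All 9 arrays carried the same kind of sample, GFP-positive retinal cells of homozygous Tie2-GFP pups at postnatal day 8. The pups had received APB5, an antibody that neutralises the pericyte receptor PDGFRb, by intraperitoneal injection from day 0 to day 7. The labels also list an incubation step, with the same duration and temperature for all 9 arrays. Its effect on the values was not tested, since no array lacked it. There were 3 replicate arrays on each of the 3 designs of the Affymetrix MG-U74v2 series. No untreated group was analysed here, so no value below shows an effect of the antibody, and no test between conditions was possible. Retinas were pooled before sorting, and the labels do not say whether replicates came from separate pools, so each SD is a spread between arrays and may be technical alone. The Tie2 promoter, which drives GFP here, is also active in some blood cells, so the sort does not select endothelium alone. Arteries, veins and capillaries were sorted together, and in such a mixture fewer cells of a kind and less RNA per cell cannot be told apart.

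Arterial identity is set up early in vessel growth by VEGF and Notch signalling together with SOX and ETS transcription factors, and ephrin-B2 is its classical surface mark. Venous identity depends on Nr2f2, also known as COUP-TFII, which restrains the Notch pathway in veins. In the retina of the first postnatal week the arteries and veins radiate from the optic nerve and are joined by a capillary plexus at whose front new sprouts form.

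Each value is a linear intensity as deposited. A position says what percentage of the probe sets on an array read no higher, with ties sharing a rank. The floor is the 40th percentile of each array, an intensity of 33.5 to 34.9 for the A arrays, 33.6 to 35.1 for the B arrays and 25.3 to 25.4 for the C arrays. A probe set counted as above the floor, or as in the top 10% (above the 90th percentile), only if it was so on all 3 arrays. Probe sets differ in how well they hybridise, so an order of positions is not an order of transcript levels.

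Sema3g, Efnb2 and 1 probe set of Gja1 lay in the top 10% of their arrays, Fbln5 and Gja4 lay between percentiles 74.4 and 91.5 on their arrays, and Gja5, Bmx and Ackr1 lay near the middle. Of the 13 probe sets, 11 (84.6%) were above the floor, against 58.7% of all probe sets with 1 gene symbol. By design the count was 7 of 9 on A, 3 of 3 on B and 1 of 1 on C, against 58.5%, 59.3% and 58.1% of the probe sets with 1 symbol there. In the top 10% were 3 of 13 (23.1%), against 9.45% of all. The median position of the 13 was 59.3, against 52.1 for all probe sets with 1 symbol. By design it was 51.1 for the 9 on A, 88.4 for the 3 on B and 74.9 for the 1 on C. The members on A thus did not lie above that median of all. Each of the 9 genes had at least 1 probe set above the floor, and 3 genes had a probe set in the top 10%. By the strongest probe set of each gene, 72.4% of all genes were above the floor. The share of all genes in the top 10% was not computed.

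Exceeding that floor is a weak criterion. Among genes chosen for unrelated tissues such as liver, pancreas and testis, 15 of 47 probe sets (31.9%) were also above it. None of the 47 was in the top 10%, and whether any of these genes is expressed in retina was not checked. A stricter floor was set at the 90th percentile of those probe sets, taken from the 32 on design A for A, from the 12 on design C for C, and from all 47 for design B, which held only 3. Under it 5 of the 13 members passed, namely those of Efnb2, Gja4, Sema3g and Fbln5 and 1 of the 2 of Gja1, against 32.7% of all probe sets with 1 symbol. With all 47 used for every design, 6 passed, since the Nr2f2 probe set of design C was added, against 35.5% of all. No probe set of Gja5, Bmx or Ackr1 passed either of these floors, and Nr2f2 passed by 1 of its 4 probe sets under the second alone.

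**Figure D1:**
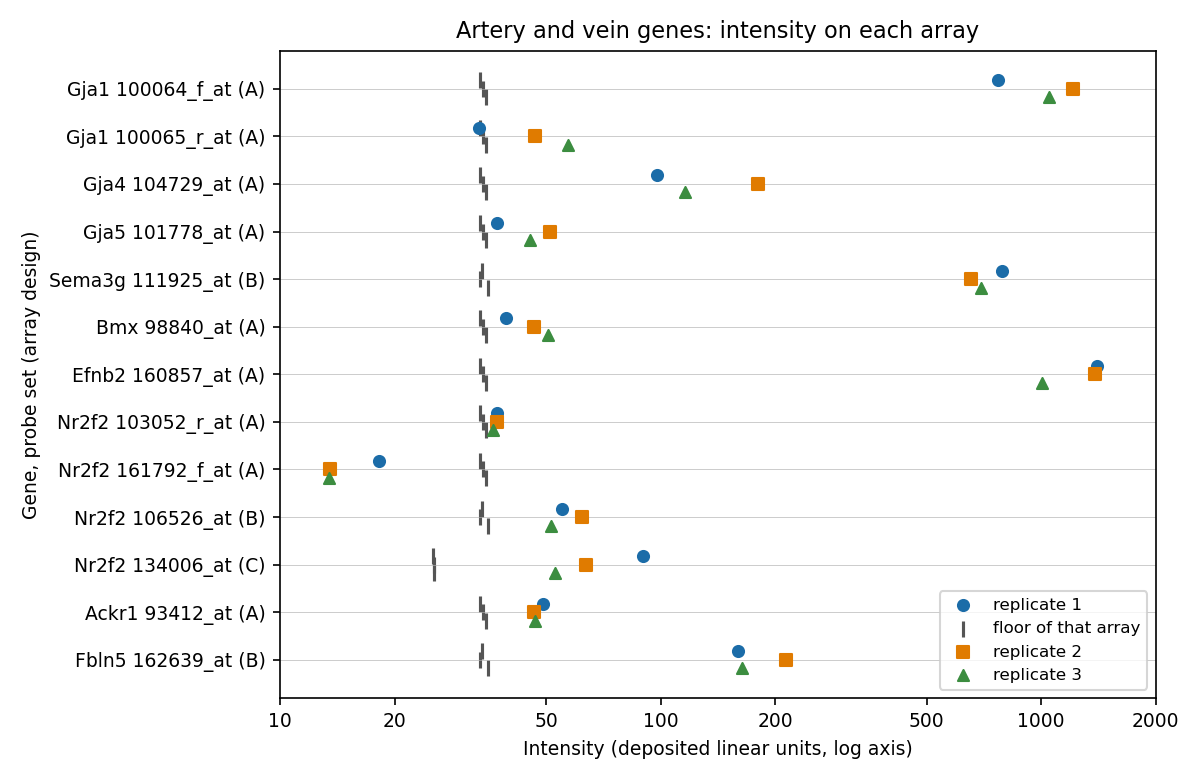
Intensity of each of the 13 probe sets (rows, with the array design in brackets) on its 3 arrays, on a log axis; grey ticks mark the floor of each array. Efnb2, Sema3g and the Gja1 probe set 100064_f_at read between 653 and 1399, and the Nr2f2 probe set 161792_f_at read below its floor on every array.

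**Figure D2:**
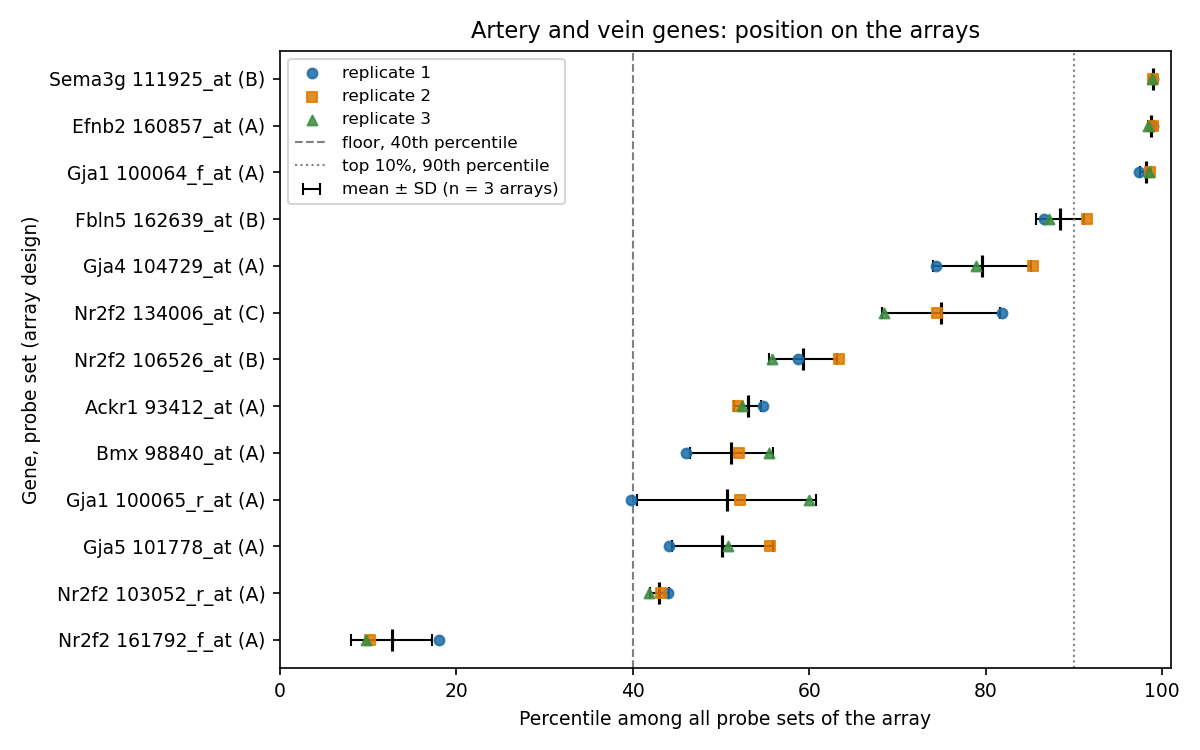
Position of the same 13 probe sets as percentiles, ordered by their mean, with the mean and SD over 3 arrays and a symbol per replicate; the dashed line is the floor and the dotted line the start of the top 10%. There is a gap between the 3 probe sets above percentile 97 and the next, Fbln5, at 88.4.

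Connexins are the subunits of gap junction channels, through which neighbouring cells exchange ions and small molecules. Gja4 encodes connexin 37, found chiefly in arterial endothelium. Its probe set read 97.6, 180.1 and 116.1 in replicates 1 to 3 of design A, a mean of 131 ± 43.3 (SD, n = 3), or 2.24, 4.08 and 2.62 times the array median. All 3 arrays were well above the floor, and the second was 1.82 times the first after centring each array on its median. Its mean position was 79.5 ± 5.6 (SD, n = 3).

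Gja5 encodes connexin 40, which arterial endothelium and the cardiac conduction system use. It read 37.2, 51.1 and 45.3 on design A, 44.5 ± 7.0 (SD, n = 3), at position 50.2 ± 5.7. These values lay just above the floor and close to the array median, at 0.854, 1.16 and 1.02 times the median. Of the 47 probe sets of unrelated tissues, 12 (25.5%) had a higher mean position than Gja5.

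Gja1 encodes connexin 43, the most widely expressed connexin, which is found in endothelium, mural cells and astrocytes. Its 2 probe sets on design A gave different pictures. The probe set 100064_f_at read 768, 1215 and 1047, a mean of 1010 ± 226 (SD, n = 3), at position 98.2 ± 0.64. The probe set 100065_r_at read 33.4, 46.7 and 57.1, a mean of 45.7 ± 11.9, at position 50.6 ± 10.2, and was below the floor of 33.5 on the first array. The annotation derives both probe sets from the same sequence record. The letter f in such a name marks probes that can match several members of a sequence family, and r marks a set for which rules of probe choice were relaxed. The top 10% call for Gja1 thus rests on the f probe set alone, and which of the 2 reads connexin 43 better was not tested.

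Among the connexins that are no members, 3 of 14 probe sets from 9 genes were above the floor and none was in the top 10%, with a median position of 20.8. The highest was Gjb1, connexin 32, at 67.4 ± 2.6 (design A). Next was 1 of 4 probe sets of Gjb6, connexin 30 of astrocytes, named with f, at 67.0 ± 3.4 on design C. The other 3 Gjb6 probe sets lay at 18.3, 0.60 (named with r) and 11.6 on design A. The connexin 45 gene Gjc1 had a design A probe set, named with r, at 57.7 ± 1.1 and a design C one at 23.3 ± 2.3. Gja4 and the high Gja1 probe set thus lay above each of these 14 probe sets in mean position, whereas Gja5 lay below 3 of them.

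Efnb2 encodes ephrin-B2, a membrane-bound ligand that signals to Eph receptors on neighbouring cells and also backwards into its own cell. It read 1399, 1382 and 1004 on design A, a mean of 1261 ± 223 (SD, n = 3), or 32.1, 31.3 and 22.7 times the array median. It stayed above position 98 on every array, with a mean of 98.8 ± 0.36. The third array read lowest and the first 2 were close together. Mural cells can express ephrin-B2 too. On the same design the 14 probe sets of mural markers summed to 919, 881 and 825, with 6 of 14 above the floor, and without Mcam, which endothelium also expresses, to 448, 418 and 455. Their part in the Efnb2 reading was not tested.

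Other ephrins and Eph receptors lay lower. Of 35 probe sets from 19 genes, 21 (60.0%) were above the floor and 1 was in the top 10%, with a median position of 53.9. That 1 was a probe set of the ephrin-A gene Efna1 on design C, named with r, at 98.0 ± 0.27. The other Efna1 probe sets, with plain names, lay at 74.4 (design A) and 43.7 (design C). Efnb1, a further B-class ephrin, lay at 42.6 (design A) and 62.6 (design B), and Efnb3 at 58.4 and 45.0 (both design A). Among the EphB receptors that ephrin-B2 binds are Ephb1, which lay at 90.1 ± 1.0 (design B), and Ephb3, at 23.1 ± 5.4 (design A). Ephb2 and Ephb4, the venous partner of ephrin-B2, had no probe set with 1 gene symbol and were not analysed here.

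Sema3g encodes a secreted class 3 semaphorin made mainly by arterial endothelium, which acts through neuropilins and plexins. It read 790, 653 and 697 on design B, a mean of 713 ± 70.2 (SD, n = 3), or 18.1, 15.2 and 15.6 times the array median. Its position hardly moved between arrays, at 98.9, 99.0 and 98.9. The other class 3 semaphorins lay lower: Sema3a, Sema3c and Sema3f had no probe set above the floor, and Sema3b at 60.6 and Sema3e at 59.9 were the highest on design A. A second Sema3b probe set on design A, named with r, lay at 2.93. Sema3d lay at 0.83 and 17.7 in its design B probe sets but at 82.3 in the design C one.

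The receptors of the family were partly high. Plxnd1, the endothelial plexin, lay at 96.9 ± 0.28 (design A) and Nrp1, the arterial neuropilin and VEGF co-receptor, at 81.1 and 96.1 in its 2 probe sets. Nrp2, the neuropilin of veins and lymphatics that Sema3g is known to bind, read 94.6, 94.96 and 70.5 on design B, at 73.0 ± 5.1. Plxna3 lay at 96.3 ± 2.8 (design B) and 74.3 ± 1.5 (design A). Its design B probe set read 413, 246 and 670, a log2 range of 1.39 after centring, so its replicates did not agree closely. Over the semaphorins and receptors that are no members, 12 of 27 probe sets (44.4%) were above the floor and 3 were in the top 10%.

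Bmx encodes a Tec family tyrosine kinase of arterial endothelium and of some myeloid cells. It read 39.2, 46.5 and 50.5 on design A, a mean of 45.4 ± 5.7 (SD, n = 3), at position 51.1 ± 4.7. These values were 0.900 to 1.14 times the array median, and 11 of the 47 probe sets of unrelated tissues had a higher mean position. Within its family, the kinase gene Tec lay at 79.0 ± 4.0, and the lymphocyte kinase genes Txk and Btk lay at 46.1 and 26.1 and at 17.6 and 1.16. Of the 5 Tec family probe sets other than that of Bmx, 1 was above the floor.

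Fbln5 encodes fibulin 5, a secreted protein that organises elastic fibres and that both endothelium and smooth muscle produce. It read 159, 214 and 164 on design B, a mean of 179 ± 30.2 (SD, n = 3), at position 88.4 ± 2.7. The second array was above the 90th percentile, at 91.5, and the other 2 were below it, at 86.6 and 87.1, so Fbln5 narrowly missed the top 10%. Only 1 of the 47 probe sets of unrelated tissues had a higher mean position. On the same design B, the 7 probe sets of mural marker genes summed to 195, 193 and 198, with 3 of 7 above the floor, and no mural marker was listed at 0 on any array. Their part in the Fbln5 reading was not tested.

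Of 28 probe sets from 13 other elastic fibre genes, 8 (28.6%) were above the floor and none was in the top 10%. By gene, 7 of the 13 (53.8%) had at least 1 probe set above the floor, against 72.4% of all genes by their strongest probe set. Eln, elastin itself, read 177, 251 and 243 in 1 probe set, at 88.3 ± 2.5, and 19.8, 19.8 and 21.7 in the other, at 20.7 ± 0.89. Fbn2, a fibrillin of developing microfibrils, had 1 probe set, named with f, at 87.1. Its other 3, with plain, r and f names, lay between 18.9 and 27.9. Lox and Loxl1, which cross-link elastin, lay between 11.9 and 37.5 in their 4 probe sets, all below the floor.

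Nr2f2 had 4 probe sets on the 3 designs, and their positions ranged from 12.7 to 74.9. The probe set 134006_at on design C was the highest, at 90.1, 63.6 and 52.8, a mean of 68.8 ± 19.2 (SD, n = 3) and position 74.9 ± 6.7. The probe set 106526_at on design B read 55.2, 62.1 and 51.6, at 59.3 ± 3.8. On design A, 103052_r_at read 37.1, 37.1 and 36.3, just above the floor on every array at 43.0 ± 1.1, and 161792_f_at read 18.2, 13.6 and 13.4, below it on every array at 12.7 ± 4.6. For the C-design set the first array exceeded the third by 0.76 on the log2 scale after centring, so its replicates did not agree closely. The design A sets carry r and f in their names, whereas the design B and C sets have plain names. On design A, the related COUP-TF genes Nr2f1 and Nr2f6 lay at 3.26 ± 0.90 and 57.3 ± 1.2.

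Ackr1, formerly known as the Duffy antigen receptor, binds chemokines without signalling and marks the endothelium of venules, and red cells can carry it too. It read 49.2, 46.4 and 46.9 on design A, a mean of 47.5 ± 1.5 (SD, n = 3), at position 53.0 ± 1.5. The arrays thus agreed closely, at 1.13, 1.05 and 1.06 times the array median, but 9 of the 47 probe sets of unrelated tissues had a higher mean position. The other atypical chemokine receptors lay at 65.7 and 75.0 for Ackr2, a scavenger of inflammatory chemokines, at 67.2 for Ackr4 and at 20.7 for Ackr3, a receptor of Cxcl12.

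In the order of mean positions, 6 of the 12 pairs of neighbours had replicate values that overlapped. Some pairs join different designs, whose positions are ranks among different probe sets. The share of overlapping pairs among other genes was not computed. Sema3g, Efnb2 and the f probe set of Gja1 overlapped in a chain at the top, and Ackr1, Bmx, the r probe set of Gja1 and Gja5 did so between percentiles 50.2 and 53.0. Gja4 overlapped the Nr2f2 probe set of design C in position, with mean intensities of 131 on design A and 68.8 on design C. Fbln5 was apart from both its neighbours, as was the Nr2f2 probe set of design B.

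Replicate arrays spread more for most of these genes than for probe sets of like signal. The highest array exceeded the lowest by 0.06 to 0.86 on the log2 scale, so that no member reached a range of 1, which 1.76% of all probe sets with 1 symbol did. Of the 13 probe sets, 10 had an SD above the median SD of the probe sets in the same signal decile of their design, against 49.9% of all. Gja4 had an SD of 0.45 on the log2 scale, against a median of 0.15 in its decile, and exceeded 96.6% of the probe sets there. The r probe set of Gja1 (0.38 against 0.11) and the Nr2f2 probe set of design C (0.39 against 0.11) exceeded 97.7% and 97.4% of the probe sets in theirs. By contrast, Ackr1 (SD 0.06) and the Nr2f2 probe set 103052_r_at (SD 0.03) varied less than most, and Sema3g (0.14 against 0.14) was typical. With these SDs, the mean of 3 arrays fixes Gja4 less well than Ackr1.

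**Figure D3:**
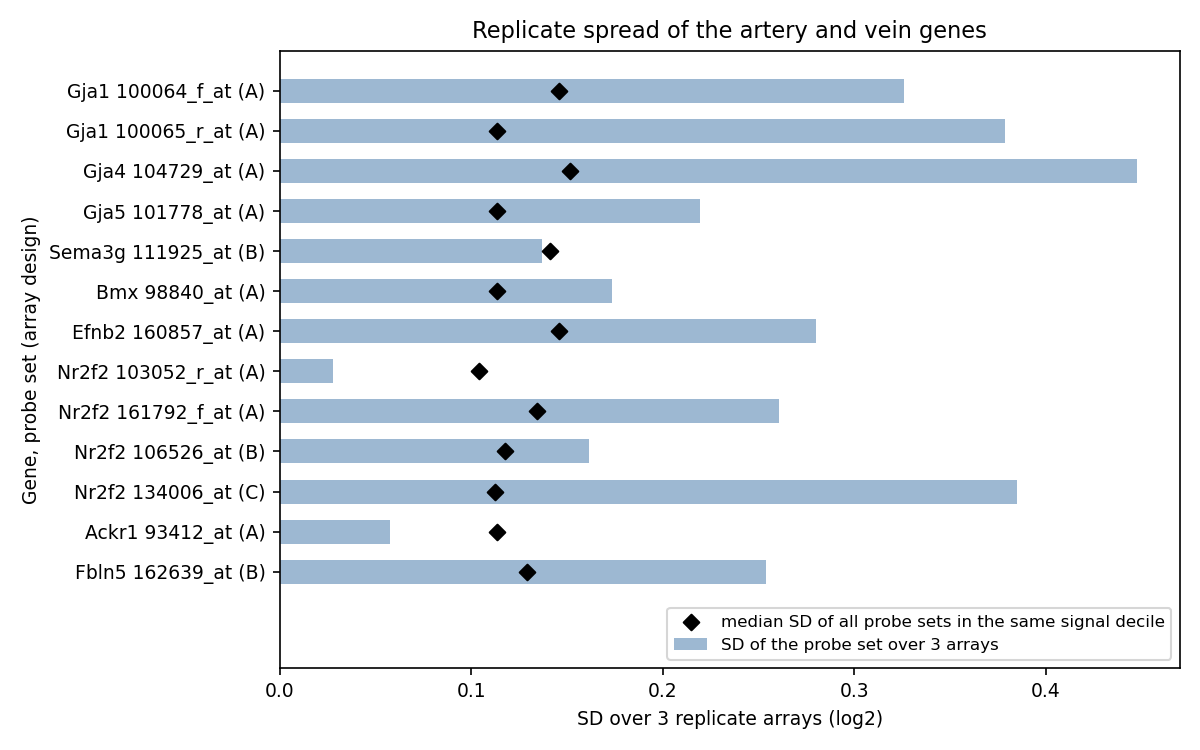
SD of log2 intensity over the 3 replicate arrays for each of the 13 probe sets (bars) and the median SD of all probe sets of the same design in the same signal decile (diamonds). The bar passes the diamond in 10 of 13 rows, and those of Ackr1, Sema3g and the Nr2f2 probe set 103052_r_at do not.

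The 3 connexin genes and Bmx shared their lowest array. After centring each array on its median, replicate 1 of design A was the lowest for 5 of the 9 members on that design, against 32.3% of the probe sets with 1 symbol. These 5 were both Gja1 probe sets and those of Gja4, Gja5 and Bmx. On that array Gja1 deviated from its replicate mean by -0.35 and -0.40 on the log2 scale, Gja4 by -0.36, Gja5 by -0.23 and Bmx by -0.19. Efnb2 did not share this: it was at 0.18 on replicate 1 and at -0.32 on replicate 3. Venous members on design A did not either, with Ackr1 at 0.07 and the Nr2f2 probe set 161792_f_at at 0.30 on replicate 1. In the wider lists described below, 4 of 23 design A probe sets of other arterial genes (17.4%) were lowest on replicate 1. For other venous genes it was 8 of 21 (38.1%), so the wider lists did not show the arterial genes lowest there.

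Among the 10 design A probe sets of other connexins, 6 were also lowest on replicate 1, and 5 of those 6 were below the floor on every array. Of the 20 design A probe sets of endothelial markers, 7 were lowest on replicate 1 and 12 on replicate 3. Their median deviation on replicate 1 was 0.03. Single markers differed in this: the junction genes Cldn5 and Cdh5 read 1339 and 1032 on replicate 1 against 2095 and 1576 on replicate 2, whereas Eng, a TGF-beta co-receptor, read 2793 on replicate 1 against 2524 and 2315. Astrocyte and Muller glia markers, relevant to Gja1, summed to 546, 500 and 527 over 17 probe sets on design A, with 4 of 17 above the floor, none listed at 0 and a median deviation of 0.02 on replicate 1. Gfap, the astrocyte filament gene, lay at 18.3 and 61.9 (design A) and at 31.0 (design C). The part of such cells in the Gja1 values was not tested. The labels do not say that arrays of equal number on different designs shared an RNA sample, so the deviations of Sema3g, Fbln5 and Nr2f2 on designs B and C were not lined up with these.

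**Figure D4:**
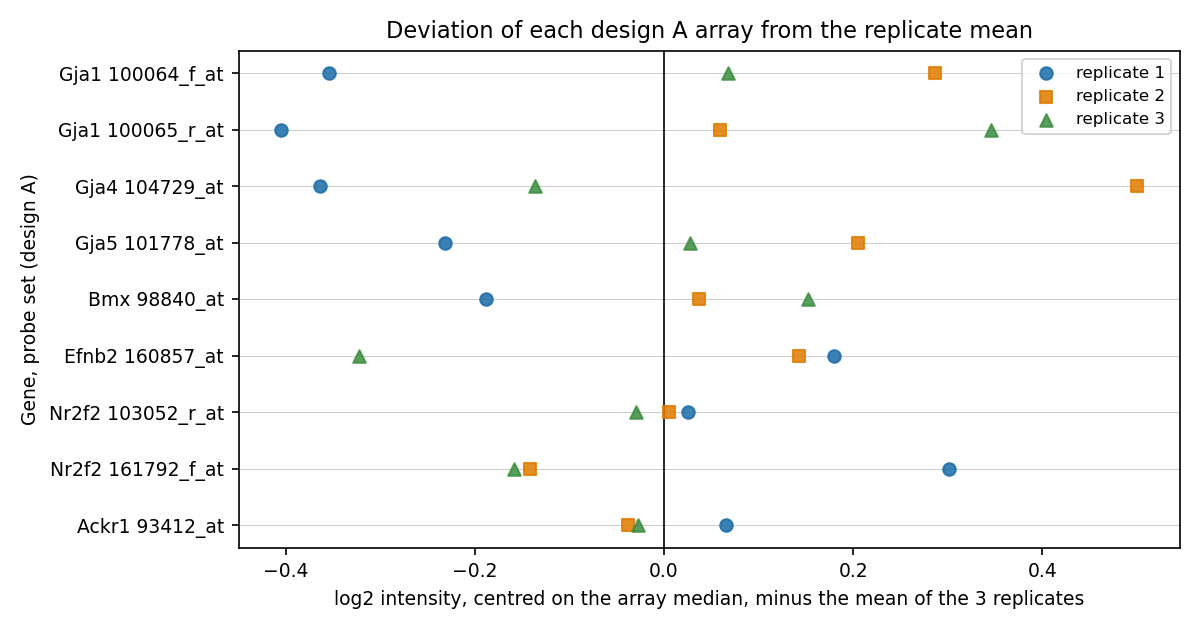
Deviation of each design A array from the mean of the 3 replicates, for the 9 probe sets on that design, in log2 units after centring on the array median. Replicate 1 (circles) lies farthest left for both Gja1 probe sets, Gja4, Gja5 and Bmx, and replicate 3 (triangles) for Efnb2 and both Nr2f2 probe sets.

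Other genes of arterial endothelium gave 44 probe sets from 19 genes, of which 31 (70.5%) were above the floor and 9 in the top 10%, with a median position of 61.2. The highest probe set belonged to Cdh13 (T-cadherin), at 99.7 ± 0.05 on design B, but the 6 Cdh13 probe sets reached down to 21.3 on that same design. Unc5b, a netrin receptor of arteries and sprouts, had design B probe sets at 99.6 ± 0.16, 60.7 and 58.4. Notch1, the receptor that drives arterial fate, lay at 97.9 and 60.6 in its 2 design A probe sets, and its ligand Dll4 at 74.6 ± 1.0 on design B. Sox17, an arterial transcription factor, lay at 89.7 and 61.7 (design A) and at 99.4 (design C). Ltbp4, which binds latent TGF-beta and helps assemble elastic fibres, had the lowest probe set of the list, at 1.12 on design C, and others at 69.4 (design A) and 37.2 (design B).

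Other venous genes gave 25 probe sets from 14 genes, of which 16 (64.0%) were above the floor and 5 in the top 10%, with a median position of 72.5. Aplnr, the apelin receptor of veins and of growing vessels, read 2301, 2577 and 2397 on design B, at 99.9 ± 0.04, but 88.3, 93.8 and 85.9 on design A, at 72.5 ± 0.67. Emcn, an endomucin of venous and capillary endothelium, lay at 98.5 ± 0.10, 90.3 and 74.0 in its 3 design A probe sets, and Adamts1, a secreted protease, had the lowest probe set, at 0.97. Both these lists and the 9 genes were chosen with earlier results of these arrays known, so the shares describe the lists and test nothing. Emcn and Vwf also stand in the endothelial marker list used below.

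Most markers of the labelled cell type were high. Of 30 probe sets of endothelial markers, 26 (86.7%) were above the floor and 18 (60.0%) in the top 10%. The highest were probe sets of the VEGF receptor gene Flt1 at 99.9 (design C) and of Eng at 99.7 (design A). Others were not high: Pecam1 lay at 52.4 in its 1 probe set (design A) and Egfl7 at 43.1 and 17.9 (design C). The lowest was a Sox18 probe set at 9.72 (design C), whereas the design A ones lay at 80.2 and 95.3. The counts above the floor were 10 of 22 for mural markers, 8 of 29 for astrocyte and Muller glia markers, 7 of 20 for macrophage and microglia markers, 12 of 23 for retinal neurons and 7 of 18 for fibroblasts. Of these lists, the mural one alone had a probe set in the top 10%, that of Mcam, at 94.4, which endothelium also expresses. Pdgfrb, the target of the antibody and the defining receptor of pericytes, read 34.4, 25.5 and 40.7, at 38.8 ± 9.1, and was above the floor on 2 of 3 arrays. Csf1r of macrophages lay at 38.4 in 1 probe set and at 87.2 in a second, named with r.

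**Figure D5:**
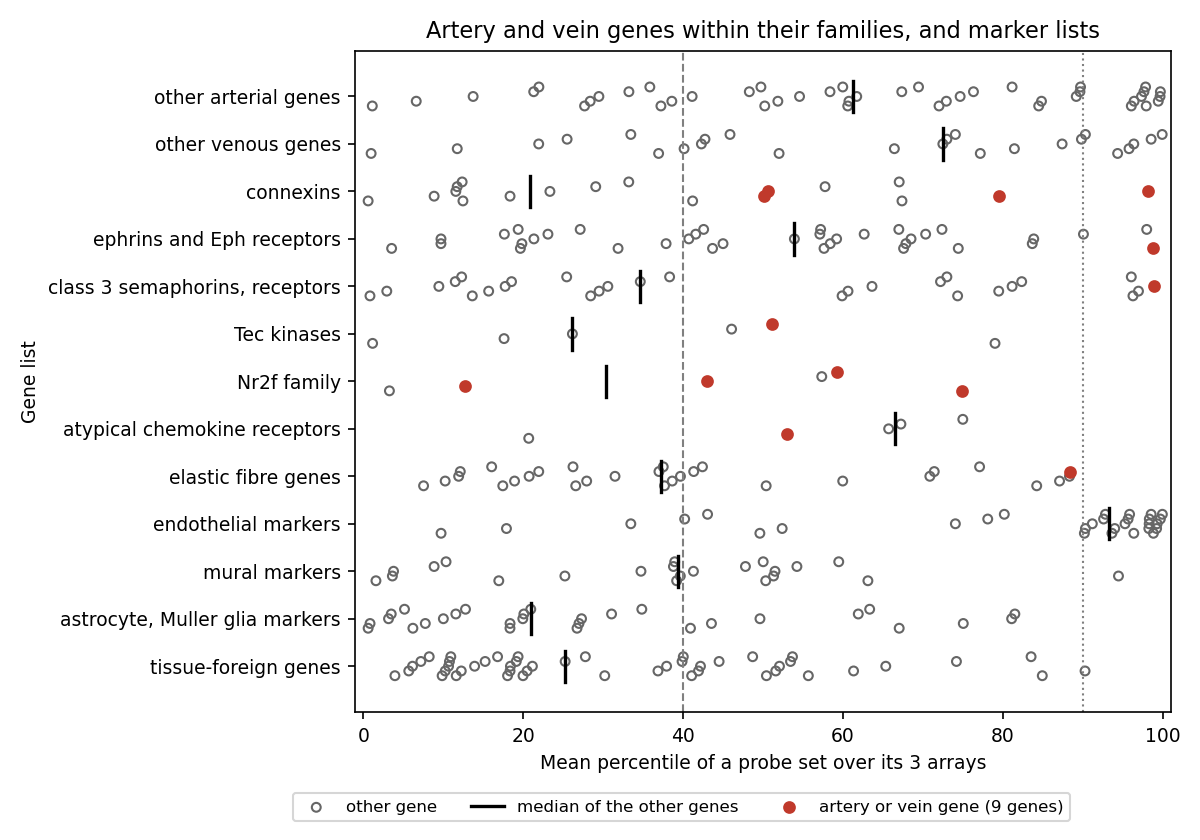
Mean position of every probe set with 1 gene symbol in 9 gene lists of arterial and venous genes and of the members' families, and in 4 marker lists; filled points are the 9 artery and vein genes, open points the other genes, and bars the median of the other genes. The filled points of Sema3g, Efnb2 and the f probe set of Gja1 lie at the right edge of their families, and the endothelial markers have a median of 93.2, against 25.2 for genes of unrelated tissues.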

How the data were processed

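Intensities of 9 Affymetrix MG-U74v2 arrays were taken from the value tables that the authors deposited, 1 per design. Per the labels' protocols, RNA of sorted cells was amplified and biotin-labelled. The sources used here do not say how the intensities were summarised and scaled. No detection calls were used. The small number of arrays limits the precision. Of 7 values of 0, none belonged to a member. For logarithms they were set to the lowest value above 0 on that array.

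Gene symbols come from the platform annotation, and 29044 of the 29131 with 1 symbol matched RefSeq (GRCm38.p6) by Entrez identifier. Another 724 probe sets had several symbols and 6846 were unnamed here. Coordinates are left out because no source names the genome build of the probe sets. Positions, floor calls and log2 spreads were computed with pandas 2.3.3 in Python 3.11.15 and tested on simulated data. Members and lists were chosen with earlier results of these data known. Besides the members, 15 preset genes and the 2 highest and 1 lowest probe sets of each list were to be named; relatives in the members' families were named after their values were seen. Alternatives were other floors and thresholds, ranking among named probe sets, plain probe sets, an offset, quantile normalization and leaving out each replicate.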

Additional observations from a re-analysis of the deposited data

How the results depend on the processing

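No paired analysis was possible because all arrays belong to 1 condition and no result comes from a test; the replicate numbers were used only to name arrays. The count of 11 member probe sets above the floor was 5 when the floor was the 90th percentile of probe sets of unrelated tissues, which on design C, where 12 such probe sets set it, lies between percentiles 83.3 and 86.0, and 6 when those of all designs were pooled, a choice made after seeing the data. The 2 highest probe sets of unrelated tissues, of Prm1 at 90.3 and Ckm at 84.9, are on design C and named with r. The member count was 8 with a floor at the 50th percentile (48.8% of all probe sets with 1 symbol) and 12 with one at the 30th (68.4%). It was 11 to 12 without 1 replicate (59.8%). Under a rule that asks for every array, leaving out a replicate can only keep or add probe sets, here and for the top 10%. Among the 9 plain probe sets all 9 were above the floor, against 61.1% of all plain probe sets with 1 symbol. The 3 probe sets in the top 10% were 3 without any 1 replicate, 3 above the 95th percentile (4.63% of all) and 4 above the 80th (19.3%). Gja1 drops out with plain probe sets, which leaves 2 of 9, against 8.76% of all plain probe sets with 1 symbol. The median position of 59.3 was 56.5 when ranked among probe sets with 1 gene symbol, and 57.3 to 61.1 without 1 replicate. No member reached a log2 range of 1 under any of the 5 alternatives for the spread. Leaving out a replicate cannot widen a range, so 3 of these could not have changed the result. The widest range was 0.63 with 50 added before logarithms and 0.85 after quantile normalization. The 5 design A probe sets lowest on replicate 1 were also 5 with 50 added before logarithms and 5 after quantile normalization, both chosen after seeing the data. Of 80 alternative values for the lists, 70 stayed within 1.5 times the value given. Taking the strongest probe set of each gene raised the share above the floor to 69.2% for class 3 semaphorins and receptors, 53.8% for elastic fibre genes, 33.3% for other connexins and for Tec kinases, 75.0% for fibroblast and 53.8% for astrocyte and Muller glia markers, against 72.4% of all genes.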

Other observations

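Both member genes that several probe sets read, Gja1 and Nr2f2, had some probe sets above the floor on all 3 arrays and probe sets that were not (that of Gja1 was above it on 2 of 3), with mean positions that spanned 47.5 percentile points for Gja1 and 62.3 for Nr2f2. Such splits are common on these arrays. Of 7645 genes with 2 or more probe sets of 1 symbol, 4369 (57.1%) were split in this way. Among genes with 2 probe sets, as for Gja1, 44.4% were split and the median span was 25.8 points, and among genes with 4, as for Nr2f2, 80.2% were split and the median span was 56.8 points. The other 7 members have 1 probe set each, so no such comparison exists for them. Among the arterial and venous relatives, Aplnr spanned 27.4 points, Sox17 37.7 and Notch1 37.3 with every probe set above the floor, whereas elastin, Eln, spanned 67.6 with 1 of 2 above it.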
